A study of Homo sapiens with 5 samples.

Results

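Lumican, decorin and 8 further secreted matrix genes (LUM, DCN, BGN, OGN, ASPN, FBLN1, POSTN, SPARC, FN1 and TNC) were followed through the deposited RNA-seq table of H9 human embryonic stem cells. They were taken from the table by gene symbol. All 10 were found among its 26506 genes, and each has a TPM value (RSEM's transcript level, corrected for transcript length and scaled to a fixed total) in each of 5 libraries.

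The study asks how loss of B3GALT5, a galactosyltransferase of glycolipid synthesis, alters the transcriptome of cells in basal medium and in media used to move primed cells towards a naive, preimplantation-like state. Wild-type (WT) H9 cells were grown in basal medium, in 2iLAF and in 5iLAF, and cells with the genotype B3GALT5-/- (B3GALT5-KO) were grown in basal medium and in 2iLAF. The labels call both basal libraries primed, WT 5iLAF and B3GALT5-KO 2iLAF naive, and WT 2iLAF primed-naive. They do not say which clone, passage or day in medium was sampled. With 1 library a group, differences carry no replicate check, no error between cultures can be given, and no p-value is reported.

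Without counts in the table, the read depth behind each value is unknown. Between 13729 and 14156 genes reached 1 TPM in a library. B3GALT5 itself stood at 9.31 TPM in basal medium, 5.13 in 2iLAF and 2.08 in 5iLAF in WT cells, and at 5.98 in basal medium and 1.17 in 2iLAF in B3GALT5-KO cells, and the edited part of the gene is not given in the sources used here, so these levels do not check the knockout. All 7 pluripotent stem cell markers examined were above 1 TPM in every library, with POU5F1 between 1099 and 3350 TPM. Of all genes reaching 1 TPM in a library, 7.02% were lower and 4.73% higher by 2-fold or more in WT 2iLAF against basal. The shares lower were 11.4% in WT 5iLAF and 11.8% in the knockout in 2iLAF, each against its basal library. By the same rule, 4 of the 7 markers were lower in WT 2iLAF and 2 higher, 2 were lower in WT 5iLAF and 3 were lower in the knockout in 2iLAF. NANOG, for example, stood at 171 TPM in WT basal and 16.5 in WT 2iLAF, and the part of such differences in the levels of the matrix genes was not tested. Of 10 naive markers, 6 reached 1 TPM in each library labelled naive, and also in WT 2iLAF, against 5 in WT basal and 4 in B3GALT5-KO basal. TFCP2L1 was highest in WT basal, at 2.77 TPM. KLF17, DPPA5, ARGFX and KHDC1L were below 1 TPM in every library. DNMT3L, KLF5 and SUSD2 were highest in the libraries labelled naive (DNMT3L 76.4 TPM in WT 5iLAF and 51.4 in the knockout in 2iLAF, against at most 1.57), whereas KLF4 was highest in WT 2iLAF, at 20.5 TPM.

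Small leucine-rich proteoglycans are secreted proteins built from leucine-rich repeats that bind collagen fibrils and control fibril width and spacing. Lumican and decorin are the best known of them, together with biglycan, osteoglycin and asporin (BGN, OGN and ASPN). Fibulin-1 and fibronectin (FBLN1 and FN1) are structural glycoproteins of the pericellular matrix, whereas SPARC, tenascin-C (TNC) and periostin (POSTN) are matricellular proteins, which modulate contact between cell and matrix. Pluripotent stem cells grow as an epithelium on a supplied matrix, and most of these genes are better known from mesenchyme, tendon, cornea and wound stroma.

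Promoter sequences from RefSeq (GRCh38.p14) were matched for 8 of the 10 genes. Those of POSTN, FN1 and TNC are shown because they share a TATA-type element close to the transcription start, and that of SPARC because it had the highest level of the 10 genes. Each line gives the 100 bases before the annotated start, 5′ to 3′ on the strand of the gene. Capitals mark ATATAA in the last 50 bases and, in FN1, also the GC-box letters GGGCGG.
POSTN (chr13:37598769-37598868, minus strand): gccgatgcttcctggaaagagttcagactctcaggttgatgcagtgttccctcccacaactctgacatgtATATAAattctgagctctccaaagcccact
FN1 (chr2:215436069-215436168, minus strand): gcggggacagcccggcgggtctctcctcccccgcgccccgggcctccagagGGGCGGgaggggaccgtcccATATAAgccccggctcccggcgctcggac
TNC (chr9:115118158-115118257, minus strand): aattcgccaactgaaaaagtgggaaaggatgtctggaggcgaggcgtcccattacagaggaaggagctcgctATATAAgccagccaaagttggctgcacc
SPARC (chr5:151686916-151687015, minus strand): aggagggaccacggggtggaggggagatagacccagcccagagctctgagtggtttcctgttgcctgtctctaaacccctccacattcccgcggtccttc

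ATATAA was searched on both strands of the last 50 bases before the start, and was chosen after the sequences had been read. It began 30 bases before the start in POSTN, 29 in FN1 and 28 in TNC, and 2.06% of 35116 RefSeq promoters hold it in that window. Over both strands of the 250 bases before the start, the cyclic AMP element TGACGTCA was present in FN1 alone of the 8 genes (1.65% of promoters), the AP-1 type TGANTCA in POSTN alone (6.57%), and GGGCGG in BGN, FBLN1, FN1 and TNC (42.6%). GC content over 250 bases was 74.0% in BGN, 77.6% in FBLN1 and 76.4% in FN1, against 36.0% in OGN, 32.4% in ASPN and 36.4% in POSTN. The median of all promoters was 58.0%. These letters are a description of the windows and carry no statement on what binds them.

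LUM encodes lumican, a keratan sulfate proteoglycan that organises collagen fibrils in the cornea and other connective tissue. It stood at 0.16 TPM in basal medium, 0.04 in 2iLAF and 17.99 in 5iLAF in WT cells, and at 0.04 in basal medium and 438 in 2iLAF in B3GALT5-KO cells. B3GALT5-KO 2iLAF was thus far above the others, WT 5iLAF was intermediate, and the remaining libraries were near 0. Among all genes of the table, LUM ranked 337th in B3GALT5-KO 2iLAF and 6798th in WT 5iLAF.

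DCN encodes decorin, which carries a chondroitin or dermatan sulfate chain and sequesters growth factors such as TGF-beta. It was listed at 0 in WT basal, B3GALT5-KO basal and WT 2iLAF, at 0.33 TPM in WT 5iLAF and at 48.3 TPM in the knockout in 2iLAF. Only B3GALT5-KO 2iLAF reached 1 TPM. DCN and LUM are neighbours on chromosome 12, in a cluster with KERA and EPYC, which encode keratocan and epiphycan. KERA was listed at 0 in every library, and EPYC did not exceed 0.28 TPM, its value in B3GALT5-KO 2iLAF. The next neighbour beyond DCN, BTG1, stood between 8.91 and 19.7 TPM in all 5 libraries. Within this cluster, therefore, LUM exceeded 1 TPM in both libraries labelled naive, DCN in 1 of them, and EPYC and KERA in neither.

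BGN encodes biglycan, a close relative of decorin with glycosaminoglycan chains, found around cells in bone, cartilage and vessels. It stood at 12.6 TPM in basal medium, 1.76 in 2iLAF and 199 in 5iLAF in WT cells, and at 11.9 in basal medium and 222 in 2iLAF in B3GALT5-KO cells. Unlike LUM and DCN, it was measured above 1 TPM in every library, was close to level between the libraries labelled naive, and was lowest in WT 2iLAF. BGN overlaps HAUS7, which is on the opposite strand. HAUS7 stood between 27.6 and 56.0 TPM and was highest in WT basal. The part of HAUS7 reads in the BGN values was not tested. Whether the counting used the strand of the reads is not stated, and reads of overlapping genes may not be separable.

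OGN and ASPN encode osteoglycin and asporin, leucine-rich proteins of bone, tendon and periodontal ligament. OGN was listed at 0 in WT basal and WT 2iLAF and stood at 0.03 TPM in B3GALT5-KO basal, 1.56 in WT 5iLAF and 10.9 in the knockout in 2iLAF. ASPN was listed at 0 in WT basal, B3GALT5-KO basal and WT 2iLAF and stood at 9.53 TPM in WT 5iLAF and 16.99 in the knockout in 2iLAF. They lie in a second cluster on chromosome 9 with OMD, which encodes osteomodulin, and ECM2, and both overlap CENPP on the opposite strand. OMD did not exceed 0.03 TPM and ECM2 did not exceed 0.33 TPM in any library. CENPP, a centromere protein gene, stood between 3.42 and 5.80 TPM in all 5 libraries, including those in which OGN and ASPN were listed at 0.

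FBLN1 encodes fibulin-1, which binds fibronectin and elastic fibres. It stood at 176 TPM in basal medium, 223 in 2iLAF and 348 in 5iLAF in WT cells, and at 182 in basal medium and 414 in 2iLAF in B3GALT5-KO cells. It was abundant in every library and varied the least of the 10 genes. SPARC encodes osteonectin, a collagen- and calcium-binding matricellular protein. Its level was 194 TPM in basal medium, 277 in 2iLAF and 899.5 in 5iLAF in WT cells, and 240.4 in basal medium and 2183 in 2iLAF in B3GALT5-KO cells, where it ranked 75th of all genes. It was the highest of the 10 genes in each library. SPARC overlaps the antisense gene CLMAT3 on the opposite strand, which was not analysed here.

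FN1 encodes fibronectin, the ligand through which integrins attach cells to provisional matrix. It stood at 44.1 TPM in basal medium, 20.7 in 2iLAF and 504.5 in 5iLAF in WT cells, and at 51.8 in basal medium and 1292 in 2iLAF in B3GALT5-KO cells. WT 2iLAF was the lowest library for FN1, as for BGN. In the basal libraries and in WT 2iLAF, FN1 lay below FBLN1, and in both libraries labelled naive it lay above FBLN1.

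TNC encodes tenascin-C, a large oligomeric glycoprotein that weakens adhesion to fibronectin and is typical of remodelling tissue. It stood at 1.84 TPM in basal medium, 5.94 in 2iLAF and 97.6 in 5iLAF in WT cells, and at 1.48 in basal medium and 119 in 2iLAF in B3GALT5-KO cells. POSTN encodes periostin, which links tenascin, fibronectin and collagen. It stood at 0.66 TPM in basal medium, 0.12 in 2iLAF and 29.1 in 5iLAF in WT cells, and at 0.22 in basal medium and 38.9 in 2iLAF in B3GALT5-KO cells. For TNC and POSTN, as for BGN, the libraries labelled naive lay close together and far above the rest, and WT 2iLAF was above basal for TNC but not for POSTN. DEC1, which overlaps TNC on the opposite strand, did not exceed 0.90 TPM.

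**Figure D1:**
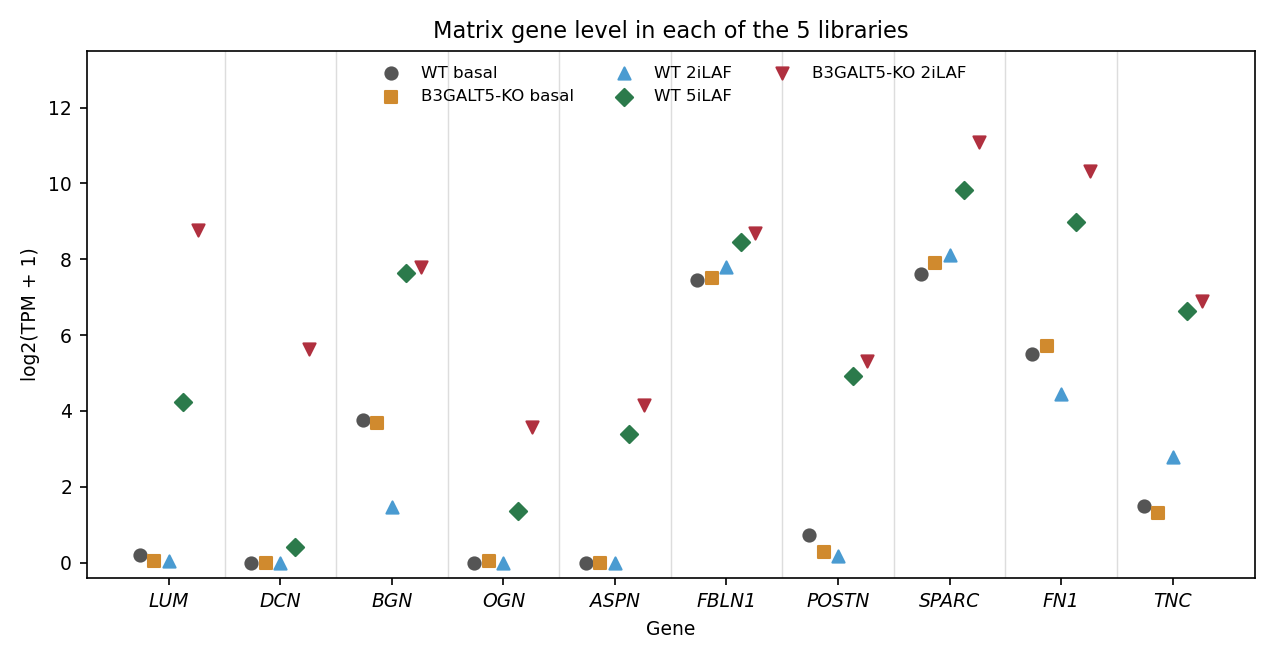
Level of each of the 10 genes as log2(TPM + 1) on the vertical axis, with 1 point per library. B3GALT5-KO 2iLAF (red triangles) is the highest library for all 10 genes and WT 5iLAF (green diamonds) is next, with the widest gaps between them for LUM (438 against 17.99 TPM) and DCN (48.3 against 0.33 TPM).

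The order of the libraries was therefore partly shared. B3GALT5-KO 2iLAF was highest and WT 5iLAF next for all 10 genes. Each library is unreplicated, so whether neighbouring values such as 199 and 222 TPM for BGN differ beyond the spread between cultures could not be assessed. In bulk RNA, fewer cells that express a gene and less RNA per cell cannot be told apart.

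Summed over the 10 genes, the level was 429 TPM in basal medium, 528 in 2iLAF and 2107 in 5iLAF in WT cells, and 488 in basal medium and 4784 in 2iLAF in B3GALT5-KO cells. This was 0.0429% of all TPM in WT basal and 0.478% in B3GALT5-KO 2iLAF. The mix of genes differed as well as the sum. The 5 leucine-rich proteoglycans made up 2.97% of the sum in basal medium, 0.341% in 2iLAF and 10.8% in 5iLAF in WT cells, and 2.46% in basal medium and 15.4% in 2iLAF in B3GALT5-KO cells. Within these 5, BGN made up 98.7% in WT basal and 87.1% in WT 5iLAF, but 30.1% in B3GALT5-KO 2iLAF, where LUM made up 59.5% and DCN 6.56%. LUM made up 7.88% of them in WT 5iLAF. Of these 5, the leading transcript was thus BGN in 4 libraries and LUM in B3GALT5-KO 2iLAF. Among the 5 glycoproteins, SPARC was the leading transcript throughout, at between 42.7% and 52.4% of the sum over all 10 genes, whereas the share of FBLN1 was 40.9% in WT basal, 16.5% in WT 5iLAF and 8.66% in the knockout in 2iLAF.

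**Figure D2:**
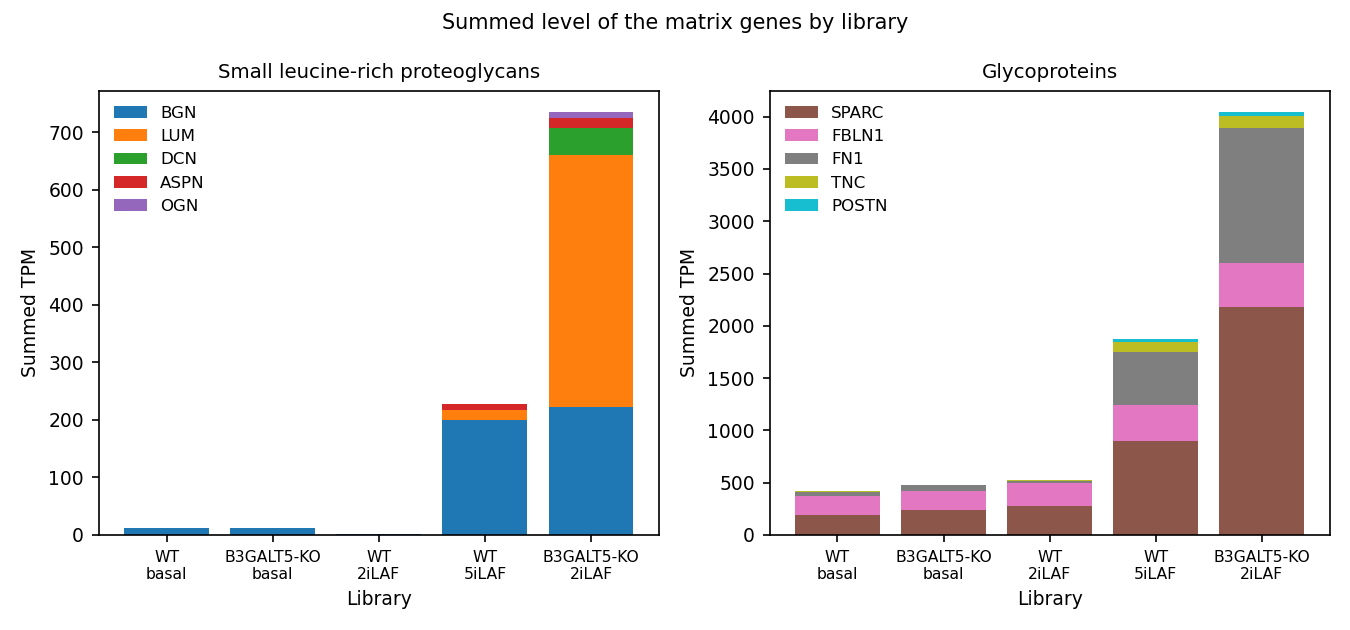
Summed TPM of the 5 small leucine-rich proteoglycans (left) and of the 5 glycoproteins (right) in each library, with bars divided by gene. On the left BGN fills most of the WT 5iLAF bar, while LUM fills most of the B3GALT5-KO 2iLAF bar; on the right SPARC and FN1 make up most of the difference between libraries.

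The libraries were compared in 6 pairs by the log2 ratio of (TPM + 1), a scale that understates the ratios of low genes. Genes are called higher or lower where that ratio is at least 1 in size, which is 2-fold and is called the size rule here. The background is the share of the 15761 genes reaching 1 TPM in at least 1 library that pass the same rule. All 10 genes entered, but DCN, OGN, ASPN, LUM and POSTN did so only through libraries labelled naive, so their passing there was in part set by the filter. Comparisons against WT basal share that library, and 3 comparisons share B3GALT5-KO 2iLAF.

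The first pair set B3GALT5-KO against WT in basal medium. None of the 10 genes passed the size rule, against a background of 1.76% in either direction (0.704% higher and 1.05% lower). With so low a background, the absence of calls among 10 genes says little. LUM, DCN, OGN, ASPN and POSTN were below 1 TPM in both basal libraries and so could not pass. The log2 ratios of the 10 genes ran from -0.44 (POSTN) to 0.31 (SPARC), with a median of 0.00, and the median of all genes was -0.06. The median of 0.00 is the ratio of DCN and ASPN, which were listed at 0 in both libraries. BGN (-0.07), FBLN1 (0.05) and TNC (-0.20) lay close to level. With a pseudocount of 0.1 in place of 1, POSTN alone passed as lower, at -1.25, from values below 1 TPM in both libraries.

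In WT cells, 5iLAF against basal medium gave 8 of 10 genes higher, against a background of 10.7% of genes higher, and none lower (background 11.4%). The median log2 ratio was 3.44, and that of all genes was -0.06. TNC had the highest ratio, at 5.12, which placed it above 99.7% of all genes. POSTN (4.18), LUM (4.03), BGN (3.88), FN1 (3.49) and ASPN (3.40) followed, and SPARC (2.21) and OGN (1.36) were higher by less. The OGN call rested on 1.56 TPM and was lost with a pseudocount of 5 (0.39) and with FPKM in place of TPM (0.83). FBLN1 stood just below the rule at 0.98 and passed it after median-ratio scaling (1.07) or trimmed-mean scaling (1.05). DCN had a ratio of 0.41, and passed only with a pseudocount of 0.1 (2.10).

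In WT cells, 2iLAF against basal medium gave a different picture, with TNC higher (1.29, background 4.73%) and BGN and FN1 lower (-2.30 and -1.06, background 7.02%). The median over the 10 genes was 0.00, against -0.13 over all genes. The ratio of BGN lay at the 0.768th percentile of all genes. The FN1 call was lost with a pseudocount of 5 (-0.94), with FPKM (-0.94), and with median-ratio (-0.89) or trimmed-mean scaling (-0.90), and that of TNC with a pseudocount of 5 (0.68). FBLN1 (0.34) and SPARC (0.51) were slightly above basal, and POSTN (-0.57) and LUM (-0.16) slightly below, at levels under 1 TPM. With a pseudocount of 0.1, POSTN also passed as lower (-1.79). DCN, OGN and ASPN were listed at 0 in both libraries, and the median of 0.00 is their ratio. Of all genes counted by the size rule in this comparison, 40.2% were higher as deposited and 53.6% after median-ratio scaling.

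In B3GALT5-KO cells, 2iLAF against basal medium gave all 10 genes higher, against a background of 15.9%, and none lower (background 11.8%). The median log2 ratio was 4.39, and that of all genes was 0.02. LUM had the highest ratio, 8.72, above 99.96% of all genes. DCN (5.62), TNC (5.60), POSTN (5.03), FN1 (4.61), ASPN (4.17) and BGN (4.11) followed. OGN (3.53), SPARC (3.18) and FBLN1 (1.18) were higher by less.

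**Figure D3:**
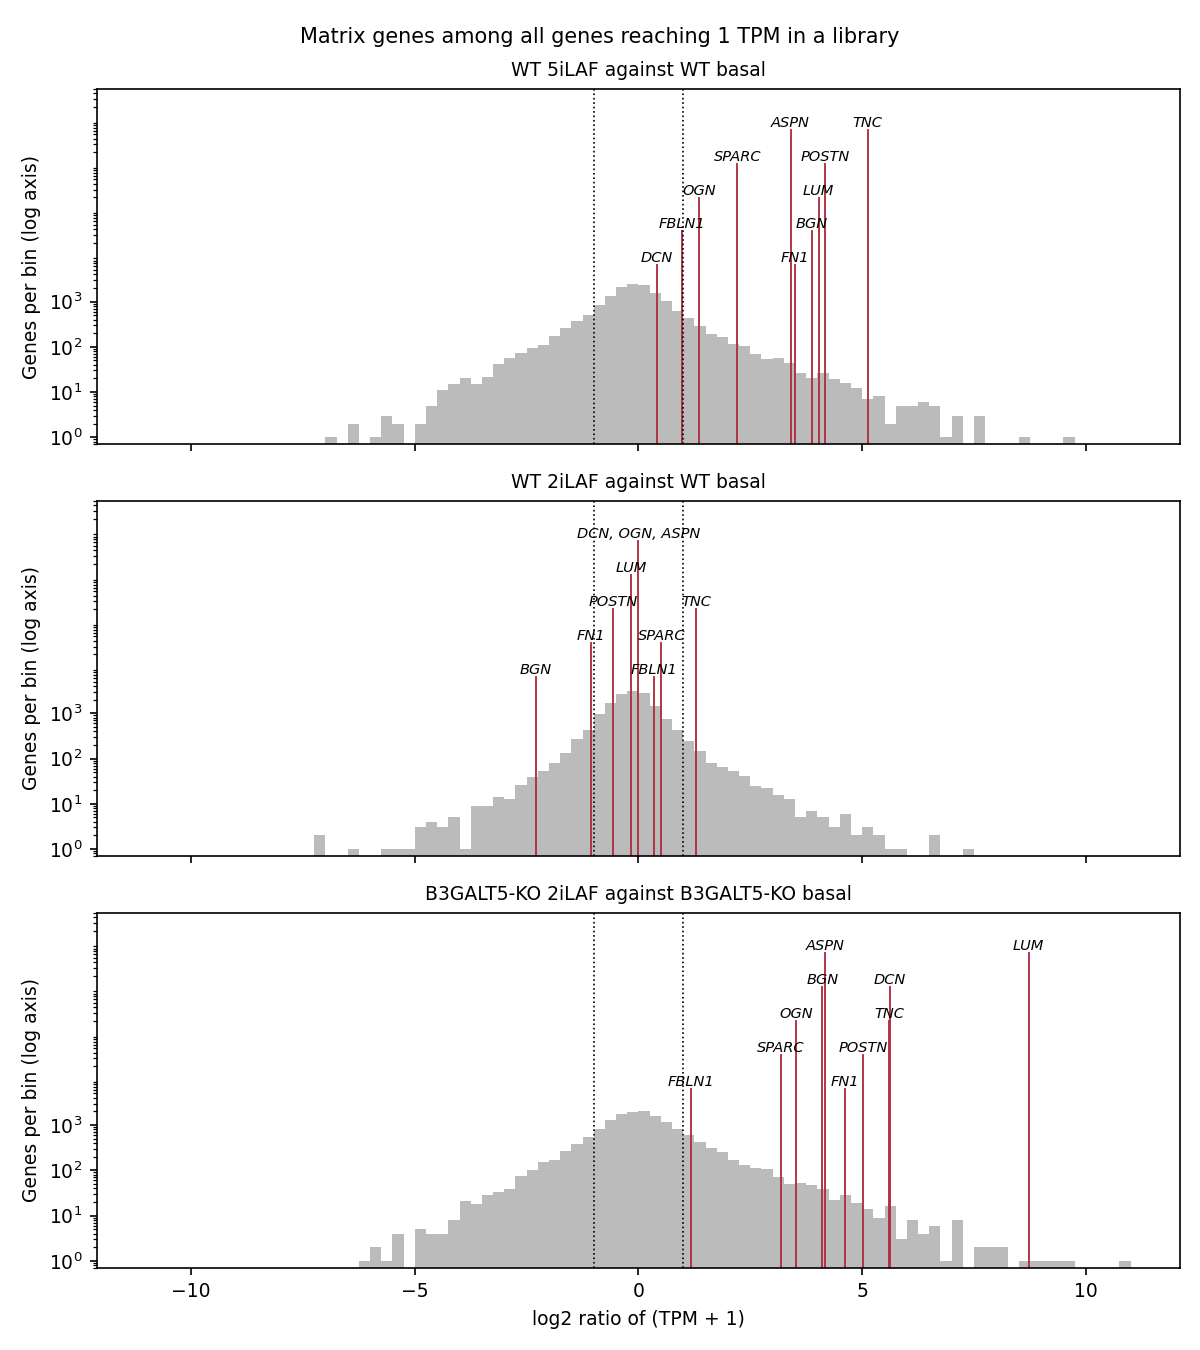
Distribution of log2 ratios of (TPM + 1) over the 15761 genes reaching 1 TPM (grey bars, log vertical axis), with the 10 matrix genes as red lines and the size rule as dotted lines. The red lines lie to the right of 0 for WT 5iLAF against basal (top, 0.41 to 5.12) and B3GALT5-KO 2iLAF against basal (bottom, 1.18 to 8.72), and on both sides of 0 for WT 2iLAF against basal (middle, -2.30 to 1.29).

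Within 2iLAF, B3GALT5-KO against WT gave 9 of 10 genes higher, against a background of 16.6% (27.4% in either direction), and none lower (background 10.8%). LUM (8.72), BGN (6.33) and FN1 (5.90) had the highest ratios. DCN (5.62), POSTN (5.15), ASPN (4.17), TNC (4.12), OGN (3.57) and SPARC (2.98) were also higher. FBLN1 had a ratio of 0.89 and did not pass. The large ratios of BGN and FN1 combine high levels in the knockout with the low levels in WT 2iLAF given above.

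The last comparison set B3GALT5-KO 2iLAF against WT 5iLAF, libraries that both carry the label naive but differ in genotype and in medium, so that the parts of genotype and medium cannot be told apart. It gave 5 of 10 genes higher, against a background of 4.90% (5.93% in either direction), and none lower (background 1.03%). DCN (5.21) and LUM (4.53) were above 99.9% of all genes by ratio. OGN (2.21), FN1 (1.36) and SPARC (1.28) also passed. ASPN (0.77), POSTN (0.41), TNC (0.29), FBLN1 (0.25) and BGN (0.16) did not. At 4-fold, DCN, LUM and OGN remained. In TPM, LUM was 24.4-fold, FN1 2.56-fold and SPARC 2.43-fold higher in B3GALT5-KO 2iLAF, whereas BGN was 1.11-fold and FBLN1 1.19-fold higher.

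**Figure D4:**
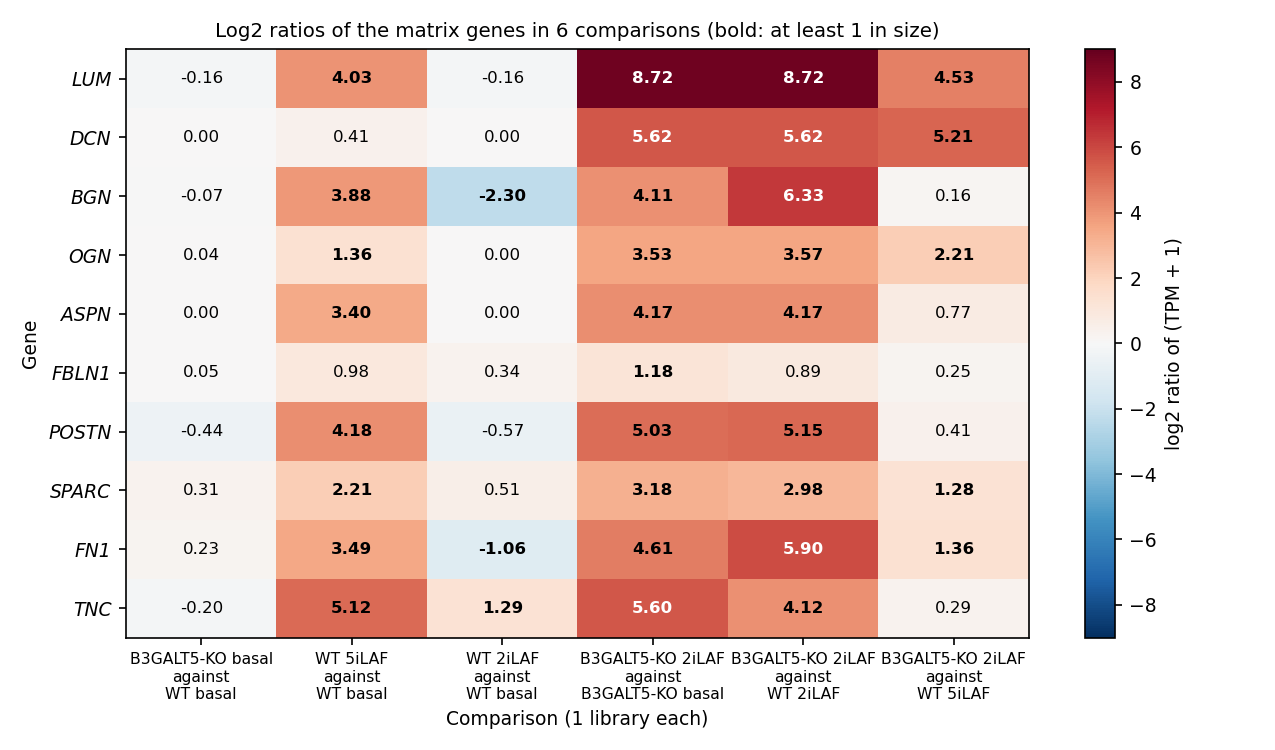
Log2 ratio of (TPM + 1) for each of the 10 genes (rows) in each of the 6 comparisons (columns), coloured from blue (lower) to red (higher), with values passing the size rule in bold. The first column has no bold value, the fourth has 10, and the last separates DCN, LUM, OGN, FN1 and SPARC from the other five, whose values run from 0.16 to 0.77.

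Related gene lists of matrix biology were counted in the same way, over all members in the table, with no test. A gene below 1 TPM in every library cannot pass the size rule. Such genes are in the lists but not in the background, so list shares are understated beside it. List members reaching 1 TPM were 20 of 24 matricellular, 19 of 20 elastic fibre, 12 of 14 receptor and 21 of 23 protease genes. All collagens and chain enzymes listed did so. Over all genes reaching 1 TPM, the shares against basal were 10.7% higher and 11.4% lower in WT 5iLAF, 4.73% and 7.02% in WT 2iLAF, and 15.9% and 11.8% in B3GALT5-KO 2iLAF, and each count below is read against these. Among 12 other small leucine-rich proteoglycans, 6 of which reached 1 TPM in a library, 4 were higher and 1 lower in WT 5iLAF against basal, 1 higher in WT 2iLAF, and 4 higher and 1 lower in B3GALT5-KO 2iLAF against basal. The counts of 1 rest on few genes and say little beside the background. FMOD, fibromodulin, stood at 0.34 TPM in basal medium, 0.12 in 2iLAF and 3.13 in 5iLAF in WT cells, and at 0.16 in basal medium and 11.9 in 2iLAF in B3GALT5-KO cells, and PRELP reached 5.17 TPM. TSKU, tsukushi, was the most abundant of this list, between 27.0 and 76.9 TPM. In B3GALT5-KO 2iLAF none of the 12 reached the level of LUM or BGN, and in WT 5iLAF only TSKU exceeded LUM. TSKU lay above BGN in WT basal (33.9 against 12.6 TPM), B3GALT5-KO basal (27.0 against 11.9) and WT 2iLAF (38.6 against 1.76).

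Among 24 other matricellular and SPARC-family genes, 8 were higher and 3 lower in WT 5iLAF, 5 higher and 2 lower in WT 2iLAF, and 9 higher and 3 lower in B3GALT5-KO 2iLAF, each against its basal library. The shares lower are near the background in all of these comparisons. In basal medium, B3GALT5-KO against WT gave 2 of the 24 higher and 1 lower (background 0.704% and 1.05%). CYR61 stood at 29.9 TPM in WT basal and 104 in B3GALT5-KO basal. IGFBP7, which binds insulin-like growth factors, stood at 0.84 TPM in WT basal, 253 in WT 5iLAF and 249 in the knockout in 2iLAF. SPP1, osteopontin, stood at 33.0 TPM in WT basal, 723 in WT 5iLAF and 620.1 in the knockout in 2iLAF. THBS1, thrombospondin-1, stood at 5.83 TPM in WT basal, 115 in WT 5iLAF and 185 in the knockout in 2iLAF, while THBS4 was lower there, at 0.87 TPM against 17.1 in B3GALT5-KO basal. The median ratios of the list were 0.25, 0.00 and 0.68, well below those of the 10 genes in the 5iLAF and knockout comparisons. All 10 genes reached 1 TPM in a library, against 20 of the 24, and the 10 were chosen with earlier results of these data known. The gap may in part follow from that choice.

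Among 20 other fibulins and elastic fibre genes, 8 were higher and 3 lower in WT 5iLAF, 3 higher and 3 lower in WT 2iLAF, and 10 higher and 2 lower in B3GALT5-KO 2iLAF, against basal. The shares lower in both libraries labelled naive are near the background. FBLN5, fibulin-5, stood at 1.78 TPM in basal medium, 0.25 in 2iLAF and 17.8 in 5iLAF in WT cells, and at 2.73 in basal medium and 51.1 in 2iLAF in B3GALT5-KO cells. MFAP2, a microfibril component, was the most abundant and lowest in the libraries labelled naive, at 219 TPM in basal medium, 394 in 2iLAF and 115 in 5iLAF in WT cells and 103.5 in the knockout in 2iLAF. Of 11 fibrillar and beaded-filament collagens, the fibres that lumican and decorin bind, 9 were higher in WT 5iLAF and 10 in the knockout in 2iLAF, and 1 was lower in each, with 2 higher and 1 lower in WT 2iLAF. COL3A1 stood at 0.30 TPM in WT basal, 258 in WT 5iLAF and 1871 in the knockout in 2iLAF, and COL1A1 at 19.4, 827 and 1630 TPM.

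The cell surface receptors of fibronectin, tenascin and periostin differed in both directions, with 4 of 14 higher and 3 lower in WT 5iLAF, 1 higher and 5 lower in WT 2iLAF, and 4 higher and 2 lower in B3GALT5-KO 2iLAF, against basal. The share lower in B3GALT5-KO 2iLAF and the share higher in WT 2iLAF are near the background. ITGA5, the alpha chain of the main fibronectin receptor, stood at 32.0 TPM in basal medium, 15.2 in 2iLAF and 146 in 5iLAF in WT cells and 139.9 in the knockout in 2iLAF, and so had the same order of media as FN1 in WT cells. ITGB3, which pairs with ITGAV, stood at 0.14 TPM in WT basal, 6.53 in WT 5iLAF and 8.49 in the knockout in 2iLAF.

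In both libraries labelled naive, against basal, enzymes that build the glycosaminoglycan side chains of these proteoglycans had smaller median ratios than the 10 genes. The 10 genes were chosen with earlier results known. For the chondroitin and dermatan sulfate list the median was 0.22 in WT 5iLAF and 0.49 in the knockout in 2iLAF, and for the keratan sulfate list 0.50 and 0.64, against basal. In WT 2iLAF against basal these medians were -0.33 and -0.84, below the 0.00 of the 10 genes and the -0.13 of all genes. Of 22 chondroitin and dermatan sulfate enzymes, 3 were higher and 3 lower in WT 5iLAF, none higher and 2 lower in WT 2iLAF, and 7 higher and 2 lower in B3GALT5-KO 2iLAF, against basal. The shares in WT 5iLAF, and those lower in the 2iLAF comparisons, are near the background. CHSY1, which polymerises chondroitin, had a level of 32.5 TPM in basal medium, 16.4 in 2iLAF and 55.4 in 5iLAF in WT cells and 99.1 in the knockout in 2iLAF. XYLT1, which starts the chain, was lower in both libraries labelled naive, at 1.43 and 2.10 TPM against 11.6 and 14.5 in the WT and knockout basal libraries. Of 7 keratan sulfate enzymes, none was higher and 1 lower in WT 5iLAF, none higher and 2 lower in WT 2iLAF, and 2 higher in B3GALT5-KO 2iLAF. With 7 genes these counts say little beside the background. B3GNT7, which extends keratan sulfate, stood at 53.2 TPM in basal medium, 11.6 in 2iLAF and 53.9 in 5iLAF in WT cells and 79.9 in the knockout in 2iLAF.

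Of 23 matrix proteases and inhibitors, 9 were higher and 2 lower in WT 5iLAF, none higher and 4 lower in WT 2iLAF, and 14 higher and 1 lower in B3GALT5-KO 2iLAF, against basal. The shares lower in both libraries labelled naive are at or below the background. BMP1, the protease that trims procollagens and the propeptides of proteoglycans, stood at 2.94 TPM in WT basal, 80.9 in WT 5iLAF and 114 in the knockout in 2iLAF. MMP2, a gelatinase, stood at 63.0 TPM in basal medium, 12.4 in 2iLAF and 212 in 5iLAF in WT cells and 246 in the knockout in 2iLAF, an order shared with BGN.

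**Figure D5:**
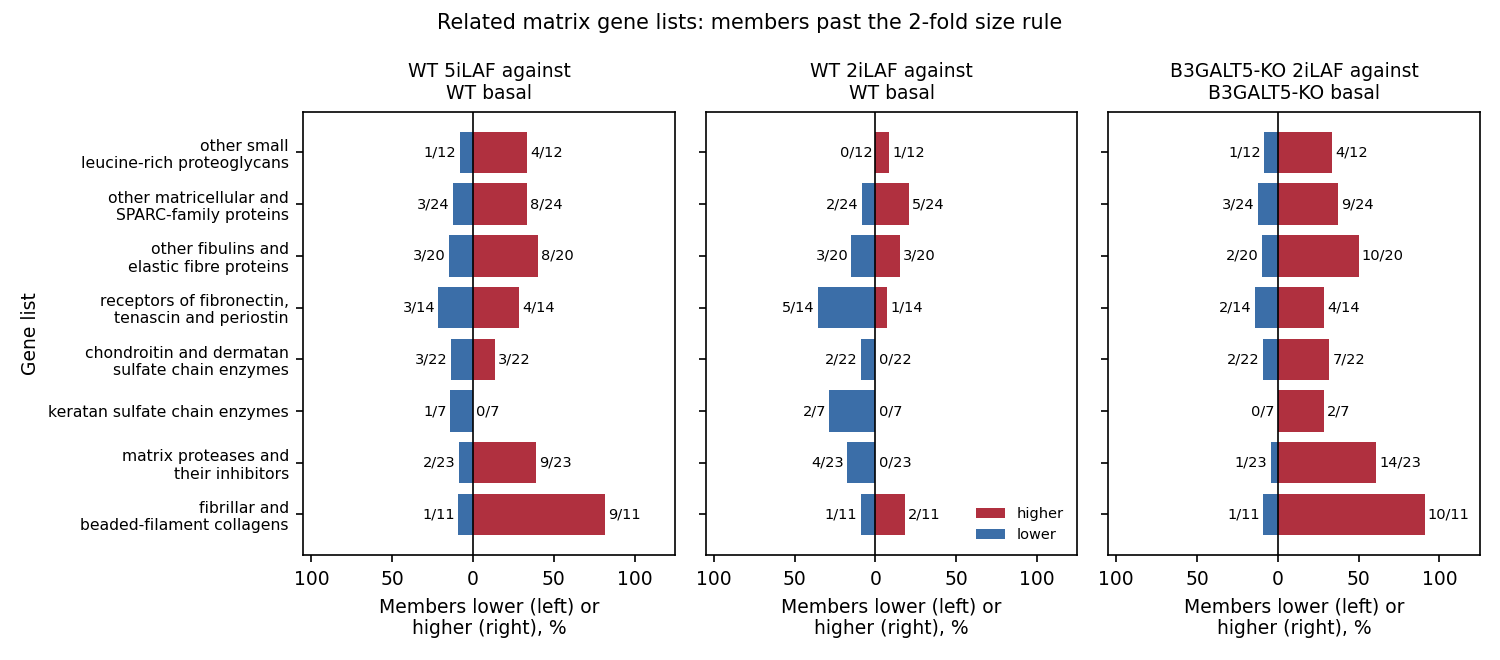
Share of each related gene list, in percent of its members in the table, that was higher (red, right) or lower (blue, left) by the size rule, with counts beside the bars, in 3 comparisons of a medium with basal. Collagens have the longest red bars (9 of 11 and 10 of 11 in the left and right panels), and keratan sulfate enzymes no red bar in the left and middle panels.

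The genes most like each member were taken as the 3 with the smallest root mean square difference between centred log2(TPM + 1) profiles over the 5 libraries, among genes reaching 10 TPM. For LUM these were IGF2 (0.38), AQP1 (0.39) and ITGA11 (0.77), the last a collagen-binding integrin chain at 12.2 TPM in WT 5iLAF and 115 in the knockout in 2iLAF. For BGN they were COL5A2 (0.25), CST1 (0.30) and GDF3 (0.48), all lowest in WT 2iLAF. For TNC they were COL12A1 (0.19), FGF4 (0.25) and IGFBP5 (0.32), and for FN1 they were SNAI2 (0.21), CCDC80 (0.28) and ADGRA2 (0.34).

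For SPARC the nearest were SPON1 (0.08), NPNT (0.13) and SLC22A3 (0.18), and for FBLN1 they were B3GNT2 (0.02), TMSB4X (0.05) and KIAA1217 (0.06). The nearest to POSTN were CYBB (0.19) and CR1L (0.21). OGN had HOXA10 (0.06), GUCY1A3 (0.11) and TGM2 (0.12), and ASPN had RPL10L (0.09), PLEK (0.10) and SRPX2 (0.12). For DCN the nearest were S100A12 (0.17), SRGN (0.17) and FCGR3B (0.17), of which S100A12 and FCGR3B are neutrophil genes listed at 0 in the other 4 libraries. Each likeness rests on 5 libraries.

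Marker sums of other cell types were high in the same libraries as these genes for some lists and not for others. All 11 granulocyte markers were above 1 TPM in B3GALT5-KO 2iLAF, where they summed to 1072 TPM, against sums of 0.84 to 3.14 TPM in the other 4 libraries, and S100A8, S100A12, ELANE and FCGR3B were listed at 0 in those. Monocyte and macrophage markers summed to 139.7 TPM in B3GALT5-KO 2iLAF, 15.9 in WT 5iLAF and between 2.09 and 3.05 elsewhere. The part of these cells in the levels of DCN and LUM in B3GALT5-KO 2iLAF was not tested. Granulocyte markers summed to 1.42 TPM in WT 5iLAF, where LUM stood at 17.99 TPM and DCN at 0.33 TPM, and the part of blood cells was not tested there either. Erythroid markers summed to 229 TPM in WT basal and 222 in B3GALT5-KO 2iLAF and to between 1.11 and 12.5 TPM elsewhere, an order that the 10 genes did not share.

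Fibroblast and stromal markers were above 1 TPM for 11 of 12 genes in each library labelled naive, against 5 of 12 in each other library. Their sums were 1110 TPM in WT 5iLAF and 3516 in the knockout in 2iLAF, against 86.4 to 113 elsewhere, and COL1A2 and COL3A1, also in the collagen list, gave most of the sum in the libraries labelled naive. PDGFRA, a receptor of mesenchymal cells, stood at 14.41 TPM in WT 5iLAF and 17.05 in the knockout in 2iLAF and below 1 TPM in the others, and PRRX1, a mesenchymal transcription factor, at 14.42 and 17.11 TPM against at most 0.05. The fibroblast transcription factor TCF21 stayed below 1 TPM throughout. Smooth muscle markers summed to 2179 TPM in WT 5iLAF and 2974 in the knockout in 2iLAF, against 104 to 546 elsewhere. TAGLN gave most of these sums, at 1686 TPM in WT 5iLAF, 2037 in the knockout in 2iLAF and 460 in WT 2iLAF. MYH11 stayed below 1 TPM in every library. Primitive streak and mesoderm markers summed to 680.3 TPM in WT 5iLAF and 690.3 in the knockout in 2iLAF, against 6.70 to 26.3 elsewhere.

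Lists of cartilage, tendon and bone (14.1 to 36.7 TPM) and endothelium (12.9 to 48.6 TPM) had sums within narrower ranges. ACAN, MATN1, SP7 and BGLAP were below 1 TPM in every library and IBSP was listed at 0, while TNMD, a tendon gene, stood at 8.47 TPM in WT 5iLAF and 23.9 in the knockout in 2iLAF against 1.99 to 2.86 elsewhere. Neural markers summed to 589 TPM in WT 2iLAF, where LHX5 stood at 89.7 TPM, and to between 136 and 605 TPM elsewhere, mostly from TUBB3. The part of each of these cell types in the levels of the 10 genes was not tested.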

How the data were processed

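Poly(A)-selected RNA of 5 H9 libraries was sequenced from stranded libraries, per the labels' protocols. The submitters' processing notes name Trimmomatic 0.39, Bowtie2 2.3.4.1 and RSEM 1.2.28 and build hg19. For annotation and strand setting, no source used here gives them. TPM and FPKM values were deposited by the authors, per the file headers, and 18 empty columns were not used. FPKM per TPM ranged from 0.484 to 0.531 between libraries. The deposited table holds no counts, and low FPKM values showed no steps of whole reads (at most 4.83% of genes shared a ratio bin), so depth is unknown and no interval is given.

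Each library was its own group. Log2 ratios of (TPM + 1) were computed for 6 comparisons over 15761 genes reaching 1 TPM in a library, with a 2-fold size rule and no test. The 10 genes, the lists and the comparisons were chosen with earlier results of these data known. The text names all 10 genes, B3GALT5, chromosomal neighbours, markers, up to 4 highest and 4 most different members of each list, and the 3 nearest profiles, of which 1 is not reported here. BTG1, HAUS7 and DEC1 were chosen after their values were seen, as were the promoter motifs. Alternatives were FPKM, median-ratio and trimmed-mean scaling, size rules of 1.5-fold and 4-fold, pseudocounts of 0.1 and 5, and a 5 TPM filter or none. Leaving out blood cell markers was added after the data were seen. In simulated data from WT basal (15761 genes, an assumed noise of 0.15 log2), all of 100 raised and 100 lowered genes, changed 4-fold and at 20 TPM or more, and 0 unchanged genes were called. This tests the calculation, not genes of low level or the spread between cultures. Python 3.11.15, numpy 2.4.6, pandas 2.3.3 and matplotlib 3.10.9 were used.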

Additional observations from a re-analysis of the deposited data

Results flagged for a closer look

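BGN and FN1 differed in opposite directions between 2iLAF and basal medium in WT and in B3GALT5-KO cells. BGN was lower in WT (12.6 to 1.76 TPM, log2 ratio -2.30) and higher in B3GALT5-KO (11.9 to 222 TPM, 4.11), a difference between the changes of 6.40. FN1 was lower in WT (44.1 to 20.7 TPM, -1.06) and higher in B3GALT5-KO (51.8 to 1292 TPM, 4.61), a difference of 5.67. The difference was not tested, because each group is 1 library, and the WT value of FN1 no longer passed the size rule with either scaling, with FPKM, with a pseudocount of 5 and at 4-fold. Of the 15761 genes, 112 (0.711%) were lower in WT and higher in B3GALT5-KO by the size rule, and 78 (0.495%) the reverse.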

How the results depend on the processing

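Over the 10 genes, 35 calls were made in the 6 comparisons, and no call changed direction under any of the 10 alternatives. A change of pseudocount, filter or size rule cannot turn a ratio round, so only the scalings and FPKM could have done so. Without a filter and with a filter of 5 TPM all 35 were kept. This was fixed in advance, because the filter acts only on the background and all 10 genes reach 5 TPM in a library. Leaving out blood cell markers only rescales all other genes alike and by little, so it could not change a call and says nothing about RNA from blood cells. A pseudocount of 0.1 kept 35 and added 3, a pseudocount of 5 lost 3, each scaling lost 1 and added 1, FPKM lost 2, the 1.5-fold rule added 3 and the 4-fold rule lost 6. In WT 2iLAF against basal, 0 genes were higher with a pseudocount of 5 and at 4-fold, instead of 1, and 1 was lower instead of 2 with a pseudocount of 5, FPKM, median-ratio scaling, trimmed-mean scaling and at 4-fold. With a pseudocount of 0.1, POSTN was added and 3 were lower. B3GALT5-KO 2iLAF against WT 5iLAF gave 3 higher at 4-fold instead of 5. In the basal comparison, 1 was lower with a pseudocount of 0.1 instead of 0.

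Counts over all genes moved more. The basal comparison called 277 genes, 848 and 74 with pseudocounts of 0.1 and 5, 1203 and 44 at 1.5-fold and 4-fold, 160 with FPKM and 182 with a filter of 5 TPM. B3GALT5-KO 2iLAF against WT 5iLAF called 935, 1711 and 323 with those pseudocounts, 2159 and 226 at those folds, 588 with FPKM and 571 with the filter. WT 2iLAF against basal called 1852, 2997 and 805 with those pseudocounts, and 4745 and 392 at those folds. With a pseudocount of 5 and at 1.5-fold and 4-fold, the counts were 1718, 6399 and 1091 for WT 5iLAF against basal (3487), 2229, 7584 and 1428 for B3GALT5-KO 2iLAF against basal (4368), and 2195, 7402 and 1420 for the comparison within 2iLAF (4325). Median-ratio scaling moved the median of all genes in WT 2iLAF against basal from -0.13 to 0.00. No paired analysis was possible because each group is 1 library.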
